A study of Mus musculus with 20 samples.

Results

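Adnp, Zc3h18, Setd8, Tom1l2, Cit and 2510039O18Rik are 6 protein-coding genes whose level was higher in cell bodies and dendrites of motoneurons after Tdp-43 knockdown. For Adnp the size of this difference depends on an overlapping gene model, Gm20716, and the sum of both stood at 130% of control in place of 306%. They were named by symbol and were chosen by their higher FPKM in somatodendritic knockdown than in somatodendritic control libraries, and each symbol matched 1 of the 39174 genes in the deposited tables. Their somatodendritic values are therefore a description of the choice and were not tested. The rule of choice used no axonal values, although earlier results of these data were known when the genes were chosen. For the axonal values the question was whether axons shared each rise. Both compartments were taken from the same kind of chamber, and the labels do not say which libraries share a culture, so that axonal and somatodendritic values may not be independent.

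The libraries came from primary motoneurons of CD-1 mouse embryos, enriched from spinal cord by panning on the p75 neurotrophin receptor. They were grown for 7 days in microfluidic chambers that separate axons from cell bodies and dendrites. Control motoneurons carried an empty lentiviral vector, and knockdown motoneurons a lentivirus with a short hairpin RNA against Tdp-43, shTdp-43.2. This was the only hairpin used for RNA-seq here. There were 4 somatodendritic and 4 axonal control libraries and 6 somatodendritic and 6 axonal knockdown libraries, each amplified by PCR from little RNA. The labels name neither cultures nor batches, so that p-values measure only the spread between these libraries, and a batch that ran with the groups cannot be told apart from the knockdown. Panned cultures hold other cells besides motoneurons.

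The values are FPKM (fragments per kilobase of transcript, scaled to the mapped fragments), which the authors computed 1 library at a time. Unless stated otherwise they are given here as scaled FPKM, divided within each compartment by 1 factor per library so that the typical gene has the same level in each. Each FPKM value came with an interval, from whose width the number of fragments behind it was worked out, called implied fragments below. This number is effective: it also drops where reads had to be shared among overlapping transcripts. Relative to the deepest library, the depth of somatodendritic libraries ran from 0.612 to 1.0 for controls and 0.143 to 0.698 for knockdown. That of axonal libraries ran from 0.530 to 0.674 for controls and 0.103 to 0.760 for knockdown. The shallowest were somatodendritic knockdown 5 and 6 and axonal knockdown 5. Axonal libraries also fell into those with a high and those with a low share of FPKM from mitochondrially encoded genes. Control 4 had a share of 33.0%, and knockdown 2, 4, 5 and 6 had 38.5 to 47.7%, but the share was 8.88 to 13.1% in the other 5 axonal libraries.

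The proteins of these genes act in different places. Adnp is a homeodomain zinc finger protein that holds the remodeller Chd4 and heterochromatin proteins on DNA and also contacts microtubule end-binding proteins. Zc3h18 is a nuclear zinc finger protein that joins the cap-binding complex to the RNA exosome, which degrades nuclear transcripts. Setd8, also called Kmt5a, is the methyltransferase that places the first methyl group on lysine 20 of histone H4. Tom1l2 belongs to the Tom1 adaptors, which bind ubiquitinated cargo, clathrin and myosin VI on endosomes. Cit encodes citron kinase, which works in cytokinesis, and a shorter neuronal form without the kinase domain that sits at synapses. 2510039O18Rik is known by its clone name, and its function is left unstated here. Tdp-43, the product of Tardbp, is a nuclear RNA-binding protein that prefers UG repeats, represses cryptic exons and limits its own mRNA.

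Since each gene was chosen for a somatodendritic rise, the bases just before their transcription starts are shown, so that any shared sequence can be seen. All 6 matched a window in the RefSeq promoter table on GRCm38.p6, Setd8 under its current symbol Kmt5a. Each line gives the 120 bases before the start, read on the strand of the gene, with matches to any of 5 motifs on either strand in capitals. The first motif was the TATA box, searched as TATAAA, and the second the box named after its letters CCAAT. The GC box was searched as GGGCGG and the E-box of basic helix-loop-helix factors as CACGTG. The last, searched as TGACG, is part of the cAMP response element. No base fell in more than 1 match.
Adnp: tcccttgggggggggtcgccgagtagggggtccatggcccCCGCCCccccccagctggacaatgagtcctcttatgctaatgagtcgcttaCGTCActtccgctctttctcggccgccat
Zc3h18: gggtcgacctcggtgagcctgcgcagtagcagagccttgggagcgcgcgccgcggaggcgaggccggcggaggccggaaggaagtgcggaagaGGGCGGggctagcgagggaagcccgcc
Setd8: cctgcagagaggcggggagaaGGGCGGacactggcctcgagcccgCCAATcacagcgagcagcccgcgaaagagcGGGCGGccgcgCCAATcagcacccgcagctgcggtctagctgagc
Tom1l2: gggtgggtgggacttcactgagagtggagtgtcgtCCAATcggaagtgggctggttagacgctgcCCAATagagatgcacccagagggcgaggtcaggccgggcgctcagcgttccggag
Cit: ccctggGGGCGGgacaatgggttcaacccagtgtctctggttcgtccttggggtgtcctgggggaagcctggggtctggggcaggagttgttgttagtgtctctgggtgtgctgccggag
2510039O18Rik: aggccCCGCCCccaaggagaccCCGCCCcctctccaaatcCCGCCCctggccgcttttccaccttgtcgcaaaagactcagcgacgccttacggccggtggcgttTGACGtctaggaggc

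These windows lie at chr2:168207113-168207232 on the minus strand for Adnp, chr8:122376489-122376608 on the plus strand for Zc3h18 and chr5:124439810-124439929 on the plus strand for Setd8. They lie at chr11:60352906-60353025 on the minus strand for Tom1l2, chr5:115845536-115845655 on the plus strand for Cit and chr4:147940775-147940894 on the plus strand for 2510039O18Rik. The RefSeq start of Cit lies inside the span that the deposited tables give for the gene, so that its window overlaps that span. All 6 windows were rich in G and C, from 63.3% in Tom1l2 and Cit to 75.0% in Zc3h18, against a median of 54.2% over 32851 windows of the table. A GC box was found in all but that of Tom1l2, with 3 in 2510039O18Rik, and 26.5% of all windows hold one. The CCAAT letters were found in Setd8 and Tom1l2, at 2 places each, and in 21.3% of all windows. The TGACG letters were found in Adnp and 2510039O18Rik and in 11.7% of all windows. Neither TATAAA, in 6.34% of all windows, nor CACGTG, in 3.66%, was found in any of the 6.

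Because Tdp-43 prefers UG repeats in RNA, the longest run of alternating T and G was also sought in the longest coding transcript of each gene in GENCODE M21. The longest runs were short, 5 bases in Zc3h18, Setd8 and 2510039O18Rik, 6 in Adnp and 7 in Tom1l2 and Cit. The 30 bases around the 3 longest are shown, with the run in capitals and U written as T.
Adnp: tccattgccttgGTGTGTatactagcaaca
Tom1l2: cagtcagatcaGTGTGTGggttctatgcag
Cit: tcagagtctgcTGTGTGTccagaaagagag
The run of Tom1l2 lies in the 3′ UTR, at chr11:60228876-60228905 on the minus strand. Those of Adnp, at chr2:168183354-168183383 on the minus strand, and Cit, at chr5:115886710-115886739 on the plus strand, lie in coding sequence, as do those of the other 3 genes. Among coding transcripts within 20% of the same length, a run at least as long was present in 68.3% for Tom1l2, 86.5% for Cit and 94.6% for Adnp, and in 99.0 to 99.9% for the others. Introns, where Tdp-43 also binds, were not searched here.

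The knockdown itself was checked first. Scaled Tardbp was 33.1, 21, 31.5 and 30.9 FPKM in somatodendritic control libraries 1 to 4. In the 6 knockdown libraries it was at most 7.44 FPKM, and it was listed at 0 in knockdown 6. The mean level was 12.4% ± 10.4 (SD, n = 6) of control, with all 6 libraries below every control (p = 0.00476 by two-sided exact permutation, the lowest value that 4 and 6 libraries allow). In axons scaled Tardbp stood at 35.1% ± 26.4 (SD, n = 6) of the control mean (p = 0.00952 by exact permutation), and deposited Tardbp at 52.9% (p = 0.138 by exact permutation). The library labelled axonal knockdown 1 held 23.6 scaled FPKM, within the control range of 15.5 to 41.5, and 33.2 FPKM as deposited, above every axonal control. Among motoneuron markers Isl2, Mnx1 and Chat were listed at 0 in all 20 libraries, while the neurofilament genes Nefl and Nefm were above 0 in all of them. Isl1 and Prph were low and were found in part of the libraries. In somatodendritic libraries Isl1 was listed at 0 in 1 of 4 controls and 2 of 6 knockdown libraries, and Prph in 2 and 3. Of the 4 axonal controls Isl1 was at 0 in 3 and Prph in 2, and both were at 0 in all 6 axonal knockdown libraries.

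**Figure D1:**
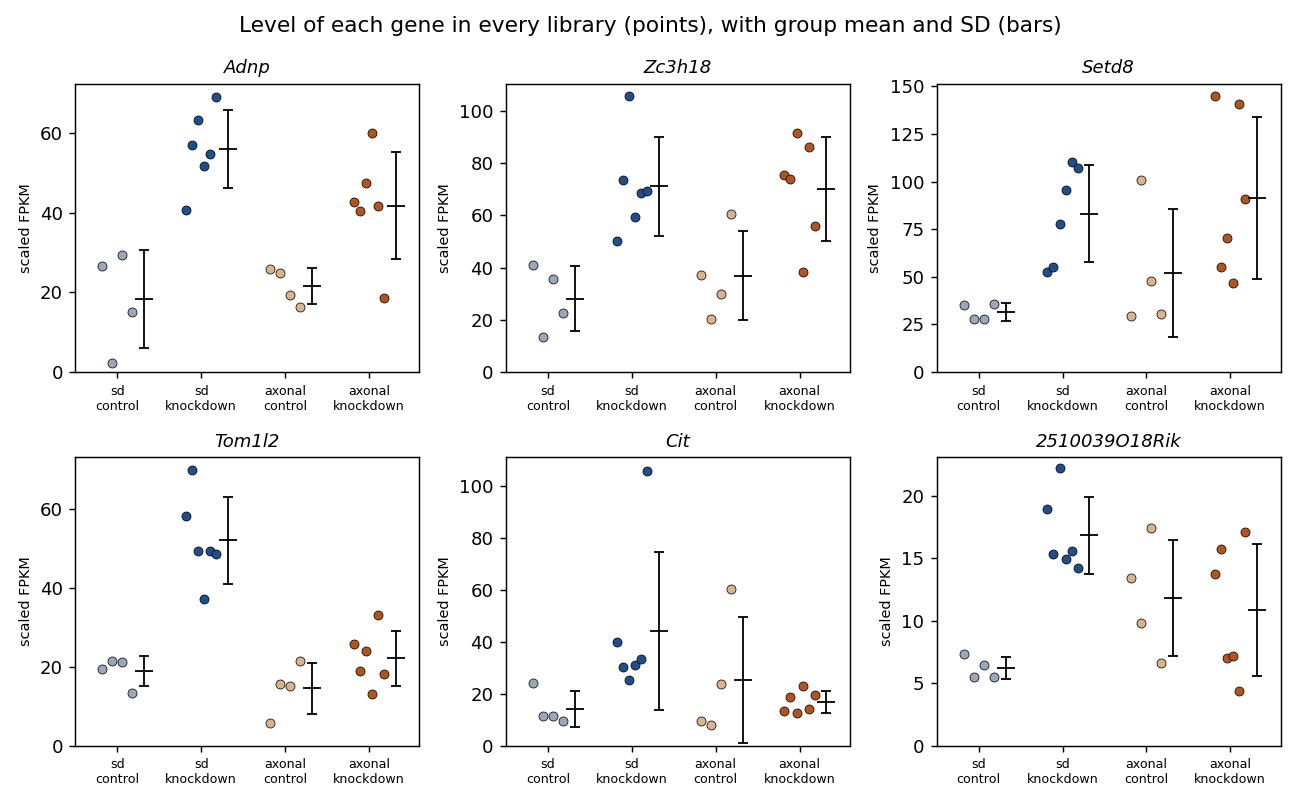
Scaled FPKM (vertical axes, linear, from 0) of each gene in the 4 somatodendritic (sd) control, 6 sd knockdown, 4 axonal control and 6 axonal knockdown libraries, 1 point per library, with the mean and SD of each group beside its points. The sd knockdown points lie above all sd control points for each of the 6 genes, while the axonal groups overlap for each.

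In the somatodendritic compartment all 6 genes had every knockdown library above every control library, as their choice implies. Of the 13762 genes tested there, 1.9% were separated in this way in the direction of a rise. By log2 change they ranked 9 (Adnp), 38 (Cit), 49 (Tom1l2), 57 (Zc3h18), 72 (Setd8) and 84 (2510039O18Rik) among the genes tested. Of the 78 other genes that ranked above 2510039O18Rik, 71 had overlapping groups and 7 did not. At an unadjusted p under 0.05 in limma 4.59% of all genes were higher, and at an adjusted p under 0.05 0.218% were higher. From these numbers nothing is read, since this contrast chose the genes.

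In axons none of the 6 genes had separated groups, against 0.451% of the 13958 genes tested that were separated in the direction of a rise. Zc3h18 and Adnp were higher at an unadjusted p under 0.05, as were 2.14% of all genes. None of the 6 passed an adjusted p under 0.05 in limma, which 0.0143% of all genes did with a rise. Of the 6, 4 had a positive axonal log2 change, as had 41.3% of all axonal genes tested, from 0.65 for Tom1l2 to 0.96 for Zc3h18. Cit and 2510039O18Rik had a change near zero. The 4 axonal control libraries together held only 21.3 implied fragments for Adnp, 16.6 for Zc3h18, 27.7 for Setd8 and 15.2 for Tom1l2. The median axonal change over the 6 was 0.75, against -0.17 over all genes tested, and the somatodendritic medians were 1.40 and -0.13. These are changes of log2(scaled FPKM + 1), which understate the change of low genes. Scaling moved the axonal median of all genes from 0.23 with deposited FPKM to -0.17, and without it the axonal change of every member read higher.

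**Figure D2:**
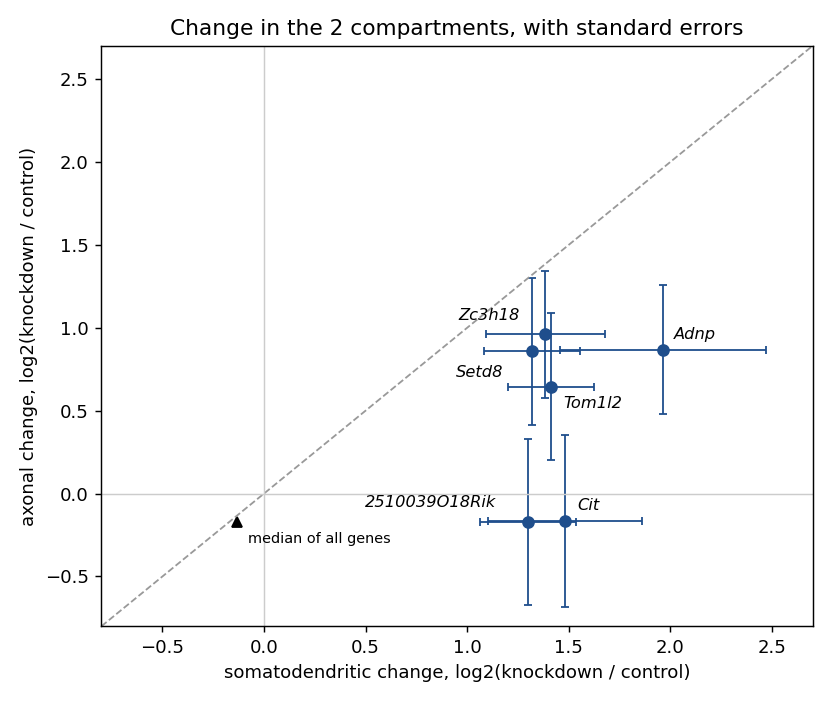
Log2 change of knockdown against control in the somatodendritic (horizontal axis) and axonal (vertical axis) compartment, as differences of log2(scaled FPKM + 1), with bars of 1 standard error on each. The dashed line marks equal change and the triangle the median of all genes tested. Adnp, Zc3h18, Setd8 and Tom1l2 lie between 0.65 and 0.96 on the axonal axis, and Cit and 2510039O18Rik lie at -0.16 and -0.17.

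Adnp (ENSMUSG00000051149, GRCm38 chr2:168180986-168207112, minus strand) had the largest somatodendritic log2 change of the 6 with all libraries, but not without control 2 or when summed with Gm20716. Its scaled FPKM was 26.6, 2.2, 29.3 and 15.2 in control libraries 1 to 4 and ran from 40.7 in knockdown 1 through a median of 55.8 to 69.0 in knockdown 6. The controls were uneven, with control 2 at 0.0832 implied fragments and an upper limit of 15.8 deposited FPKM, while the knockdown libraries differed by 1.70-fold at most. The somatodendritic log2 change was 1.97 (SE 0.51) and fell to 1.24 without control 2, the lowest value over the fits that left out 1 library.

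In axons Adnp was at 25.9, 24.8, 19.4 and 16.2 scaled FPKM in controls. The knockdown libraries had 42.7, 40.3, 47.5, 59.8, 41.8 and 18.5 FPKM. Knockdown libraries 1 to 5 thus lay above every control, and knockdown 6 lay within the control range. The mean was 193% ± 62.4 (SD, n = 6) of control, a difference past the threshold of 0.05 for this single value (two-sided exact permutation test, p = 0.0381). The log2 change of 0.87 (SE 0.39, 95% interval 0.04 to 1.69) had an unadjusted p of 0.0411 and an adjusted p of 0.557 in limma. With 1 library left out the unadjusted p in limma ran from 0.00941 without knockdown 6 to 0.103 without control 4 and was under 0.05 in 3 of 10 fits, those without control 1, knockdown 5 or knockdown 6.

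The value of Adnp cannot be read apart from that of Gm20716, a gene model that overlaps it. Gm20716 (ENSMUSG00000093752, chr2:168180986-168230364) is a read-through model that joins the neighbouring Dpm1, a subunit of dolichol-phosphate mannose synthase, to Adnp. Of the 31-base words of its 5288-base transcript 83.0% also occur in an Adnp transcript and 16.5% in a Dpm1 transcript, and 89.1% of the words of the longest coding Adnp transcript occur in Gm20716. Most fragments from this locus therefore match both, and the split of FPKM between Adnp and Gm20716 was made by Cufflinks in each library.

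In somatodendritic controls Gm20716 was at 23.0, 43.3, 19.5 and 37.6 scaled FPKM, highest in control 2 where Adnp was lowest. In somatodendritic knockdown libraries it was 20.3, 9.03, 3.25 and 16.2 FPKM in replicates 1 to 4 and listed at 0 in 5 and 6. The fall had a log2 change of -2.60 (SE 0.85) with an unadjusted p of 0.00943 and an adjusted p of 0.177 in limma. Of the 6 libraries 5 lay below every control. Because Gm20716 and Adnp divide the same fragments, these p-values are not independent of the rise that chose Adnp. In axons Gm20716 was at 2.36, 0.0163, 9.55 and 7.79 FPKM in controls. It was listed at 0 in knockdown libraries 1 to 5 and at 18.4 FPKM in knockdown 6, the library with the lowest Adnp.

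Summing Adnp and Gm20716 removes this division, although FPKM of transcripts of unlike length add only approximately. The sum was chosen after the values were seen. Somatodendritic controls were then nearly even, at 49.6, 45.5, 48.8 and 52.8 scaled FPKM. Somatodendritic knockdown libraries ran from 54.8 in replicate 5 through a median of 66.2 to 69.0 FPKM in replicate 6. The groups still did not overlap, yet the mean was only 130% of control, against 306% for Adnp alone, and the log2 change was 0.37 in place of 1.97. As Adnp went from 18.3 to 56.0 scaled FPKM in mean, Gm20716 went from 30.9 to 8.13.

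In axons the sum made the groups cleaner. It was 28.3, 24.8, 29.0 and 24.0 scaled FPKM in controls and 42.7, 40.3, 47.5, 59.8, 41.8 and 36.8 FPKM in knockdown libraries. All 6 knockdown libraries lay above every control, and the mean was 169% ± 30.7 (SD, n = 6) of control (p = 0.00476 by two-sided exact permutation, the lowest that can be reached). The sum was chosen with these values known, and Gm20716 was high in knockdown 6, where Adnp alone lay within the control range. This p is therefore descriptive and not a planned test. With each library left out in turn the level ran from 159% to 175%. With the 2 gene models summed in the fit over all genes the log2 change was 0.72 with an unadjusted p of 0.0422 and an adjusted p of 0.560 in limma. Dpm1 itself had log2 changes of 0.73 (SE 0.93) in somatodendritic and 0.48 (SE 0.88) in axonal libraries, with adjusted p of 0.780 and 0.909 in limma.

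**Figure D3:**
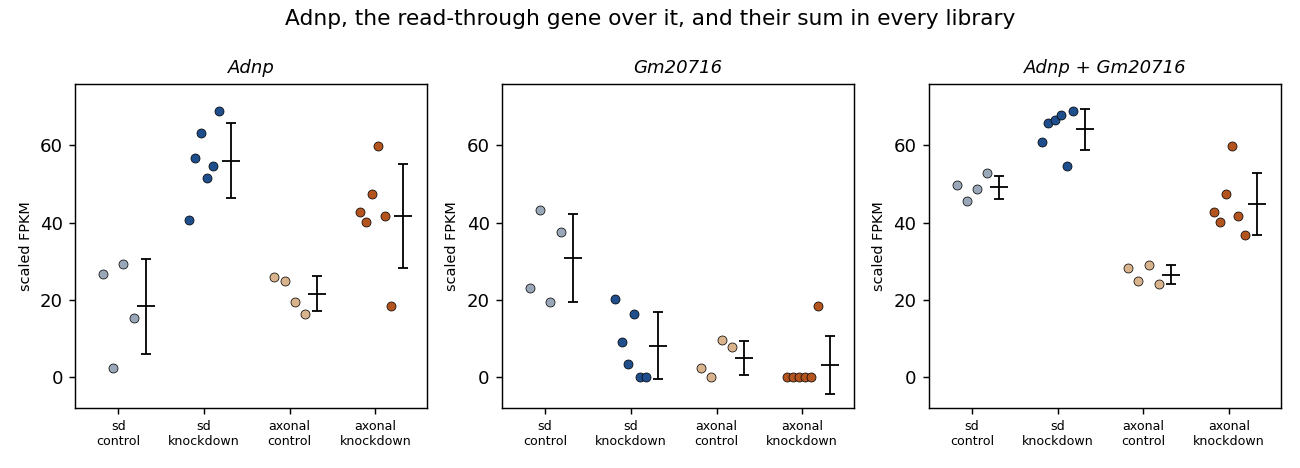
Scaled FPKM (vertical axes, linear) of Adnp, of the overlapping read-through gene Gm20716 and of their sum, 1 point per library in the 4 groups (sd, somatodendritic), with mean and SD. The sum lies at 45.5 to 52.8 in sd control and 54.8 to 69.0 in sd knockdown libraries, and at 24.0 to 29.0 and 36.8 to 59.8 in axonal ones.

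Zc3h18 (ENSMUSG00000017478, chr8:122376609-122417360, plus strand) was at 40.9, 13.5, 35.5 and 22.7 scaled FPKM in somatodendritic controls. In knockdown libraries it ran from 50.1 in replicate 1 through a median of 69.1 to 106 FPKM in replicate 3. The highest control and the lowest knockdown library were thus close, while the means stood at 28.1 and 71.2 FPKM, and the log2 change was 1.39 (SE 0.29).

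Axonal Zc3h18 was 37.1, 20.4, 29.7 and 60.4 scaled FPKM in controls and 75.4, 74.0, 91.5, 38.2, 86.3 and 56.1 FPKM in knockdown libraries 1 to 6. Replicates 1, 2, 3 and 5 exceeded every control, while replicates 4 and 6 lay between control values. The mean was 190% ± 53.9 (SD, n = 6) of control (two-sided exact permutation test, p = 0.0429, not adjusted over the 6 genes). Axonal knockdown 4 and 5 held only 2.17 and 1.68 implied fragments of Zc3h18. With 1 library left out the exact permutation p was under 0.05 in 3 of 10 tests, those without control 4, knockdown 4 or knockdown 6, and at most 0.0833. Its axonal log2 change of 0.96 (SE 0.38, 95% interval 0.14 to 1.78) was the largest of the 6, with an unadjusted p of 0.0242 and an adjusted p of 0.485 in limma. The unadjusted p in limma was 0.0992 without control 2 and 0.0576 without control 3. Among the 5 axonal libraries with a low mitochondrial share, the 2 knockdown libraries at 75.4 and 91.5 FPKM stood apart from 3 controls at 20.4 to 37.1. Among those with a high share the single control, at 60.4 FPKM, lay in the middle of 4 knockdown libraries at 38.2 to 86.3.

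Setd8 (ENSMUSG00000049327, chr5:124439930-124462308, plus strand) had even somatodendritic controls at 35.2, 27.6, 27.7 and 35.6 scaled FPKM. The knockdown libraries ran from 52.4 in replicate 1 through a median of 86.7 to 110 FPKM in replicate 5. Replicates 1 and 2 were at 1.66 and 1.75 times the control mean and replicates 4, 5 and 6 at 3.03 to 3.5 times. The size of the rise therefore differed between libraries more than for 2510039O18Rik or Tom1l2, and the 2 shallowest libraries were among the highest. The log2 change was 1.32 (SE 0.24) and was 1.12 without those 2.

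In axons Setd8 was at 29.4, 101, 47.6 and 30.6 scaled FPKM in controls and 145, 55.1, 70.5, 47.0, 141 and 90.8 FPKM in knockdown libraries. Control 2 exceeded 4 of the 6 knockdown libraries, and only replicates 1 and 5 exceeded every control. The mean was 176% ± 81.6 (SD, n = 6) of control, a difference within the spread between libraries (two-sided exact permutation test, p = 0.176). The log2 change of 0.86 (SE 0.44, 95% interval -0.08 to 1.79) had an unadjusted p of 0.0700 and an adjusted p of 0.624 in limma. Without axonal control 2 Setd8 stood at 255% of control (p = 0.0833 by exact permutation) and had a log2 change of 1.23 with an unadjusted p of 0.0149 in limma, where the adjusted p was 0.573. In limma its unadjusted p was under 0.05 in 6 of 20 alternatives, and its adjusted p was at least 0.296 in all of them.

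Tom1l2 (ENSMUSG00000000538, chr11:60226714-60352905, minus strand) was at 19.4, 21.6, 21.2 and 13.5 scaled FPKM in somatodendritic controls. Knockdown libraries ran from 37.1 in replicate 4 through a median of 49.5 to 70.0 FPKM in replicate 2. Both groups were tight, with coefficients of variation of 19.8% and 21.1%, and the log2 change was 1.41 (SE 0.21, the smallest error of the 6). Over the fits that left out 1 library it stayed between 1.27 and 1.51.

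Axonal Tom1l2 was lower in level, at 5.81, 15.7, 15.1 and 21.6 scaled FPKM in controls and 25.7, 19.0, 24.1, 13.2, 33.1 and 18.2 FPKM in knockdown libraries. Replicates 1, 3 and 5 exceeded every control, and the other 3 lay within the control range. The mean was 152% ± 47.8 (SD, n = 6) of control (two-sided exact permutation test, p = 0.124), and the log2 change was 0.65 (SE 0.44, 95% interval -0.30 to 1.59, adjusted p = 0.733 in limma). Deposited FPKM put it at 223% of control (p = 0.0381 by exact permutation), so that the call turned on the scaling.

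Cit (ENSMUSG00000029516, chr5:115845278-116008947, plus strand) rested on few fragments. Its 4 somatodendritic control libraries held 5.61 implied fragments in all and its 6 knockdown libraries 20.8, against 47.6 and 172 for Adnp. Scaled FPKM was 24.2, 11.3, 11.4 and 9.68 in controls and ran from 25.4 in replicate 3 through a median of 32.2 to 106 in replicate 6. Replicate 6, the shallowest somatodendritic library, was at 7.46 times the control mean and the other 5 at 1.79 to 2.81 times. The log2 change was 1.48 (SE 0.38) with all libraries and 1.21 without replicate 6.

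Axonal Cit was at 9.61, 8.13, 23.8 and 60.1 scaled FPKM in controls and 13.3, 18.6, 12.6, 22.9, 14 and 19.7 FPKM in knockdown libraries. The 6 knockdown values all fell inside the control range, which control 4 stretched upward. The mean was 66.3% ± 16.4 (SD, n = 6) of control (two-sided exact permutation test, p = 0.548). Without control 4 it was 121% (exact permutation test, p = 0.488), so that 1 library decided the direction. The log2 change of -0.16 had a 95% interval of -1.27 to 0.94, and without control 4 the change was 0.38. In all, 8.53 implied fragments in controls and 8.13 in knockdown libraries stood behind these values.

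2510039O18Rik (ENSMUSG00000044496, chr4:147940895-147947314, plus strand) has a single transcript in GENCODE M21, against 4 for Adnp, 10 for Zc3h18, 11 for Tom1l2, 13 for Setd8 and 19 for Cit. It had the lowest mean level of the 6, at 7.31, 5.50, 6.49 and 5.54 scaled FPKM in somatodendritic controls. The knockdown libraries ran from 14.2 in replicate 6 through a median of 15.4 to 22.2 FPKM in replicate 3, each between 2.28 and 3.57 times the control mean. The log2 change was 1.30 (SE 0.24), on 35.5 implied fragments in controls and 103 in knockdown libraries.

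Axonal 2510039O18Rik was at 13.4, 9.79, 17.4 and 6.64 scaled FPKM in controls and 13.7, 15.8, 7.05, 7.18, 4.42 and 17.1 FPKM in knockdown libraries. The groups lay over each other, and the lowest value came from replicate 5, the shallowest axonal library, with 1.0 implied fragment. The mean was 92.0% ± 44.8 (SD, n = 6) of control (two-sided exact permutation test, p = 0.757). The log2 change of -0.17 had a 95% interval of -1.23 to 0.89. No difference between compartments was tested for any of the 6, since the somatodendritic values chose them. The sign turned with deposited FPKM, at 133% of control (p = 0.352 by exact permutation), without axonal control 3 (109%) and without axonal knockdown 5 (105%).

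**Figure D4:**
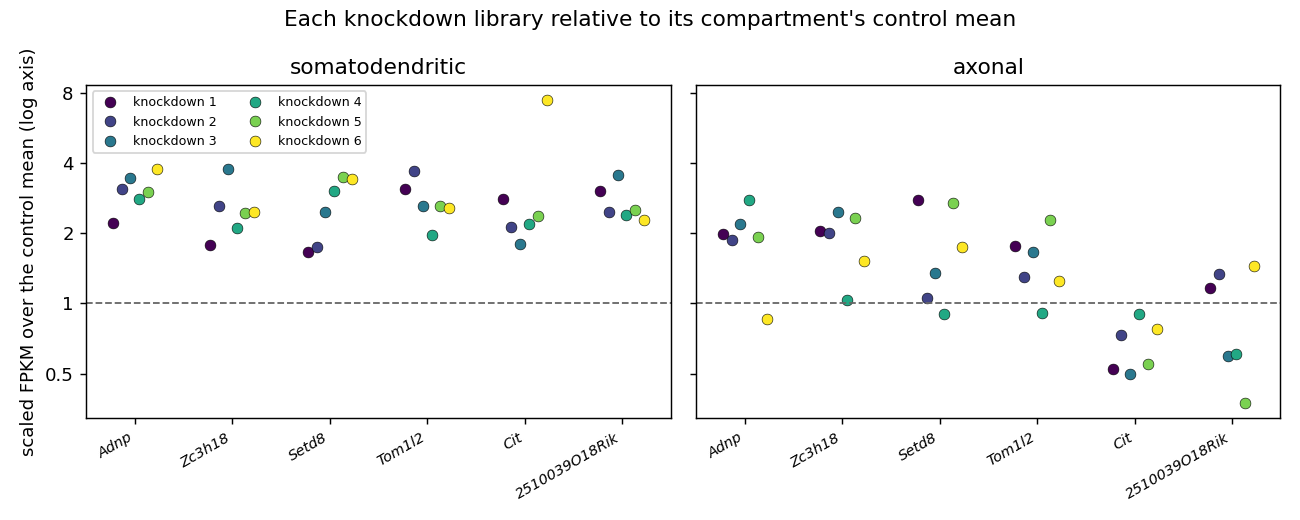
Scaled FPKM of each knockdown library divided by the control mean of its compartment (vertical axis, log scale), for the 6 genes, with replicates 1 to 6 in colour and a dashed line at the control mean. All somatodendritic points lie above the line, from 1.66 (Setd8, replicate 1) to 7.46 (Cit, replicate 6), and axonal points run from 0.37 (2510039O18Rik, replicate 5) to 2.79 (Setd8, replicate 1).

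The knockdown libraries did not rank alike across the genes. Among somatodendritic libraries replicate 3 was highest for Zc3h18 and 2510039O18Rik, replicate 6 for Adnp and Cit, replicate 2 for Tom1l2 and replicate 5 for Setd8. In axons replicates 1 and 5 exceeded every control for 4 of the 6 genes each. Replicate 3 did so for 3, replicate 2 for 2, replicate 4 for 1 and replicate 6 for none. Replicate 5 was the shallowest axonal library, and its values for Adnp, Zc3h18, Setd8 and Tom1l2 rested on 1.25, 1.68, 4.06 and 1.23 implied fragments.

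In deposited FPKM, which are not tied to a scaling within 1 compartment, Adnp was at 17.8 ± 3.79 in axonal and 17.2 ± 11.6 in somatodendritic controls (SD, n = 4 each), but its sum with Gm20716 was at 21.9 ± 1.12 and 46.1 ± 4.06. Zc3h18 was at 30.8 ± 15.3 and 26.4 ± 11.6. Axonal controls were higher in mean for Setd8, Cit and 2510039O18Rik and lower for Tom1l2, though only for 2510039O18Rik did the means lie more than 1 SD of both groups apart. Knockdown means in deposited FPKM were highest in axons for Zc3h18 (86.2 ± 34.7, SD, n = 6) and Setd8 (112 ± 58.9), and within their spread of the somatodendritic means of 77.0 ± 19.2 and 90.1 ± 27.9. For Tom1l2, Cit and 2510039O18Rik the somatodendritic knockdown libraries held the highest mean, 56.6 ± 12, 47.0 ± 29.0 and 18.3 ± 3.46 FPKM, against 27.1 ± 10.4, 19.8 ± 3.36 and 12.8 ± 5.83 in axonal ones.

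The sum over motoneuron markers separated knockdown from control libraries in both compartments, and that over genes of dividing cells did so in somatodendritic libraries. The part of these markers in the changes above was not tested. Nefl and Nefm made up nearly all of the motoneuron sum, and the paper reports Nefl mRNA as bound by TDP-43 and lowered in knockdown axons. The other marker sums overlapped between the groups. In bulk libraries, fewer cells of a type and less RNA per cell cannot be told apart. The 7 motoneuron markers found in the tables, nearly all of it Nefl and Nefm, summed to 183 to 215 scaled FPKM in somatodendritic control and 61.9 to 135 in knockdown libraries, and to 62.2 to 109 and 14.3 to 61.0 in axons. The 5 genes of dividing cells summed to 65.8 to 82.7 in somatodendritic control and 11.1 to 55.0 in knockdown libraries. In axons that sum ran from 145 to 260 for controls and from 35.7 to 308 for knockdown libraries. The 9 glial genes summed to 372 to 410 and 223 to 385 in somatodendritic, and to 77.8 to 545 and 18 to 588 in axonal libraries. The 6 fibroblast genes summed to 10.2 to 17.9 and 4.32 to 22.4 in somatodendritic libraries and to 19.3 to 72.1 and 17.4 to 75.6 in axons.

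For the partners of Adnp in chromatin and at microtubule ends, 3 of 11 tested genes were higher in somatodendritic knockdown libraries at an unadjusted p under 0.05, none was lower, and none passed the adjusted threshold in limma. Of all genes 4.59% were higher and 9.22% lower at this p. The list had a median log2 change of 0.20, against -0.13 over all genes. Pogz, a zinc finger protein that binds heterochromatin protein 1, went from 37.2 to 66.6 scaled FPKM in mean (log2 change 0.78, SE 0.31). Chd4, the remodeller in complex with Adnp, went from 32.6 to 45.3 (0.45, SE 0.18), and Arid1a, a subunit of the BAF remodeller, from 46.0 to 61.0 (0.40, SE 0.15). The adjusted p-values in limma were 0.234 to 0.287. In axons none of the 11 was higher (2.14% of all genes) or lower (6.46%) at an unadjusted p under 0.05, and the median was 0.15 against -0.17 over all genes.

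For nuclear cap binding and the RNA exosome, where Zc3h18 acts, 4 of 19 tested genes were higher (4.59% of all genes) and none lower (9.22%) in somatodendritic libraries at an unadjusted p under 0.05, and none passed the adjusted threshold in limma. Zcchc8, the scaffold of the nuclear exosome targeting complex, went from 4.22 to 10.6 scaled FPKM (log2 change 1.14, SE 0.33, adjusted p = 0.128 in limma). Srrt, which binds the cap-binding complex as Ars2, had a change of 0.67 (SE 0.27), and the exosome subunits Exosc3 and Exosc1 had 0.77 (SE 0.35) and 0.51 (SE 0.23). In axons none of the 19 was higher (2.14% of all genes) and 1 was lower (6.46%) at an unadjusted p under 0.05, Exosc9, by a log2 change of -2.38 (SE 0.75, adjusted p = 0.30 in limma). The medians of the list were 0.12 in somatodendritic and 0.39 in axonal libraries, against -0.13 and -0.17 over all genes.

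For histone H4 lysine 20 methylation and the turnover of Setd8, 1 of 11 tested genes was higher (4.59% of all genes) and none lower (9.22%) at an unadjusted p under 0.05 in somatodendritic libraries. This was Trp53bp1, a reader of methylated lysine 20 in DNA repair, which went from 113 to 167 scaled FPKM (log2 change 0.53, SE 0.19, adjusted p = 0.234 in limma). In axons Suv420h1, which adds further methyl groups to lysine 20, had a change of 1.19 (SE 0.46), and Ddb1, of the ubiquitin ligase that degrades Setd8, had -1.26 (SE 0.39), with adjusted p of 0.454 and 0.286 in limma. The medians were -0.30 and -0.26, below those of all genes.

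For the Tom1 family and endosomal ubiquitin adaptors, 4 of 14 tested genes were higher (4.59% of all genes) and 1 lower (9.22%) in somatodendritic libraries at an unadjusted p under 0.05, and none passed the adjusted threshold in limma. Hgs, which sorts ubiquitinated cargo on endosomes, went from 20.8 to 50.2 scaled FPKM (log2 change 1.22, SE 0.30, adjusted p = 0.0798 in limma). Gga3, a trans-Golgi adaptor, had a change of 0.77 (SE 0.30) and Tsg101, of the ESCRT-I complex, 0.49 (SE 0.21). The clathrin light chains went opposite ways, Cltb by 0.36 (SE 0.15) and Clta by -0.57 (SE 0.25). In axons none of the 14 was higher (2.14% of all genes) or lower (6.46%) at an unadjusted p under 0.05, and Hgs had a change of -0.73. The medians of the list were 0.34 in somatodendritic and -0.003 in axonal libraries, against -0.13 and -0.17 over all genes.

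Of the nearest expressed genes on the chromosome, none that could be tested was higher in somatodendritic libraries at an unadjusted p under 0.05, as 4.59% of all genes were. Beside 2510039O18Rik, Plod1 and Clcn6 had log2 changes of 0.66 (SE 0.36) and 0.08 (SE 0.26). Beside Setd8, Sbno1 and Rilpl2 had -0.02 (SE 0.22) and -0.95 (SE 0.53), and beside Tom1l2, Srebf1 and Lrrc48 had -0.87 (SE 0.52) and -0.44 (SE 0.54). Beside Cit, the pseudogene Gm13841 and Prkab1 had -0.20 (SE 0.16) and 0.31 (SE 0.41), and Pard6b beside Adnp had 0.56 (SE 0.43). Cyba beside Zc3h18 was lower by -2.33 (SE 0.74, unadjusted p = 0.00790, adjusted p = 0.164 in limma). Zfpm1, on the other side of Zc3h18, and the pseudogene Gm12266 inside Tom1l2 were under 1 FPKM in mean in somatodendritic libraries and were not tested there. In axons Zfpm1 had a change of 0.96 (SE 0.92) and Gm12266 of 1.31 (SE 0.68), and only Lrrc48 reached an unadjusted p under 0.05 (-1.56, SE 0.71, adjusted p = 0.564 in limma). No neighbour passed the adjusted threshold in either compartment.

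Over the 20 libraries and 12646 genes tested in both compartments, Adnp was most like Zc3h18 (Pearson r of log2(scaled FPKM + 1) 0.76), followed by Poldip3 and Bcl9l (0.71 and 0.70). Zc3h18 was most like AY036118 (0.77), then Adnp and Zfp609 (0.67). Setd8 came closest to Ppp1r18, Yipf3 and Smc2 (0.78, 0.77 and 0.75). Tom1l2 had the closest matches of the 6, Ube4b (0.85), Wdr45b (0.84) and Ubap2l (0.83). Cit was most like Hipk1, 2700081O15Rik and Has3 (0.74, 0.72 and 0.72), and 2510039O18Rik most like Coro1b, Ctns and Mga (0.72, 0.71 and 0.71). These coefficients describe libraries that share groups, depth and scaling, and Adnp and Zc3h18 were both chosen for the same difference.

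**Figure D5:**
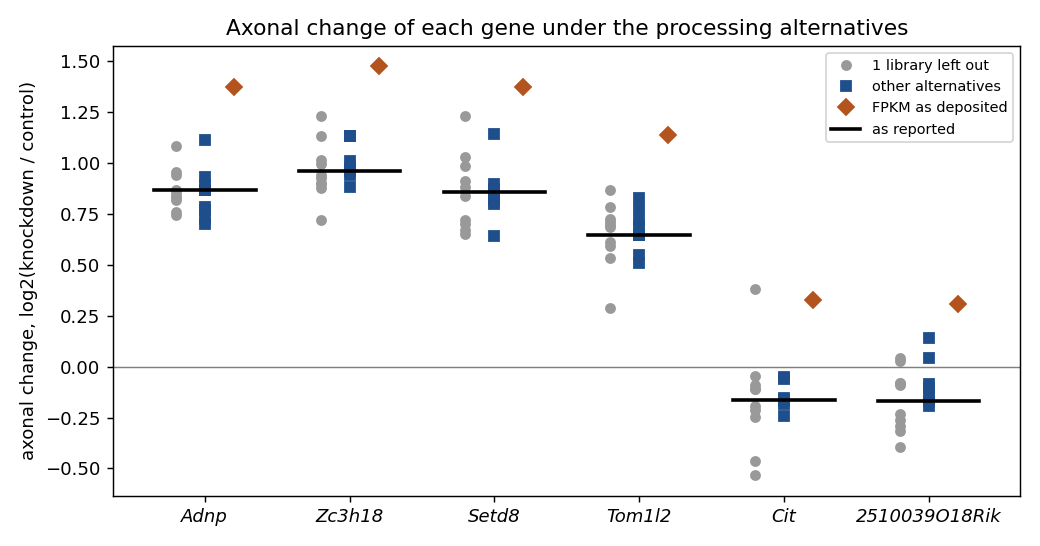
Axonal log2 change of each gene (vertical axis, difference of log2(FPKM + 1) or as the alternative defines it) as reported (black line), with 1 library left out (grey), under other alternatives (blue) and with FPKM as deposited (orange). Adnp, Zc3h18, Setd8 and Tom1l2 stay above 0, the lowest being 0.29 for Tom1l2, and Cit and 2510039O18Rik fall on both sides of 0.

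How far the axonal changes depend on the scaling can be stated for each gene. With deposited FPKM the axonal log2 changes were 1.37 for Adnp, 1.47 for Zc3h18, 1.37 for Setd8 and 1.14 for Tom1l2, and 0.33 and 0.31 for Cit and 2510039O18Rik. The order of the 6 was thus kept, with the first 4 well above the median of all genes on either scale. Of all axonal genes at an unadjusted p under 0.05, 24.9% were higher after scaling and 72.8% with deposited FPKM, and in somatodendritic libraries 33.2% and 63.0%. Within the 5 axonal libraries of low mitochondrial share, the level in knockdown was 193% of control for Adnp, 287% for Zc3h18, 182% for Setd8, 204% for Tom1l2, 93.6% for Cit and 76.8% for 2510039O18Rik. With 3 controls and 2 knockdown libraries no exact test can go below p = 0.10. Against the single control of high share, all 4 knockdown libraries were higher for Adnp and Setd8, 2 for Zc3h18, 1 for Tom1l2, 3 for 2510039O18Rik and none for Cit.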

How the data were processed

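RNA-seq libraries from axonal and somatodendritic compartments were analysed from the deposited FPKM tables, which the authors made with Cufflinks 2.2.1 on GRCm38 per the submitters' processing notes. The aligner's version and the annotation release are not given in the sources used here. The control libraries had been described before, and by the study's account they went through the processing together with the knockdown libraries. Each table gives 39174 genes with a 95% interval. Implied fragments are (2 FPKM / (upper limit - FPKM)) squared, and relative depth was taken over 680 genes. Values at or under 0.001 FPKM count as listed at 0. PCR copies are not independent molecules, so that intervals cover counting error only.

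Libraries were scaled within a compartment by the median of ratios. The test on log2(scaled FPKM + 1), for every gene that averaged 1 FPKM or more, was limma 3.58.1 in R 4.3.3 (trend, two-sided, Benjamini-Hochberg), and it was checked on simulated data. Single levels were compared by exact permutation. All 6 genes passed the filter in both compartments. Python 3.11.15, numpy 2.4.6, pandas 2.3.3 and matplotlib 3.10.9 were used for the rest.

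The 6 genes, the lists of partners and markers and the alternatives were chosen with earlier results of these data known. The genes named are the 6 members, Tardbp, up to 5 genes per list and compartment at an unadjusted p under 0.05, the nearest genes on each side of a member and those that overlap it with a mean of at least 1 FPKM, and the 3 genes most like each member. Alternatives left out each library in turn, blocked on the replicate number, fitted all 20 libraries together or used array weights. They also used deposited FPKM, quantile normalization, a pseudocount of 0.1 or 5, and no filter or one at 10 FPKM. Fits that kept relative depths of 0.5 or more, the sum of Adnp and Gm20716 and the split at a mitochondrial share of 20% were chosen after seeing the data. The result of 1 partner list is not reported here.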

Additional observations from a re-analysis of the deposited data

Results flagged for a closer look

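Of the 24 groups formed by the 6 genes, 2 held a library that stood far from the rest by Dixon's criterion at the 95% level, which chance passes in about 1 in 20 such groups, and both were of Cit. Somatodendritic control 1 had 24.2 scaled FPKM of Cit against 9.68 to 11.4 in the other 3 controls. Somatodendritic knockdown 6, the shallowest library of its compartment, had 106 scaled FPKM against 25.4 to 39.7 in the other 5. Cit had the fewest implied fragments of the 6 genes in both libraries' groups, and the part of depth in these values was not tested.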

How the results depend on the processing

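In limma 1901 somatodendritic genes passed a p of 0.05 before adjustment and 134 after it. The first count was 1147 with a filter at 10 FPKM and 1007 with both compartments fitted together. The second was 233 with deposited FPKM, 212 with a pseudocount of 5, 432 with array weights, 65 in the joint fit, and 58 to 198 with 1 library left out. Of axonal genes 1201 and 56 passed, and the first count was 542 with a filter at 10 FPKM and 1946 in the joint fit. The second was 30 with a pseudocount of 0.1, 87 with array weights, 190 in the joint fit, and 37 to 70 with 1 library left out. The number of higher genes at an unadjusted p moved from 632 to 1276 in somatodendritic and from 299 to 999 in axonal libraries with deposited FPKM, and to 1014 and 540 with quantile normalization. Beyond the construction of each alternative, the cause was not tested.

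A replicate block left 18 somatodendritic and 35 axonal genes past the adjusted threshold. Same-numbered control and knockdown libraries did not deviate together (r from -0.02 to 0.06 across genes), and only 1 of the 8 control libraries was closest to its own number. With the block the axonal log2 changes of the members ran from -0.17 for Cit to 1.11 for Adnp. No member passed the adjusted threshold with it, and the unadjusted p of Zc3h18 in limma was 0.0778, in place of 0.0242.

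None of the 6 genes reached an adjusted p under 0.05 in axons under any alternative in limma, with adjusted p of 0.192 to 0.994. Axonal Cit had a log2 change of 0.33 with deposited FPKM (92.7% of control in level) and -0.53 to 0.38 with 1 library left out (54.2 to 121% of control), positive only without axonal control 4. Axonal 2510039O18Rik had 0.31 (133% of control) with deposited FPKM, 0.044 with quantile normalization, 0.14 among libraries of a relative depth of at least 0.5 and -0.40 to 0.041 with 1 library left out (80.3 to 109%), positive without axonal control 3 (0.03) and knockdown 5 (0.041, 105%). Adnp stood at 178 to 216% with 1 library left out and passed an exact p under 0.05 in 6 of 10 such tests, and Zc3h18 at 166 to 241% and in 3 of 10. In limma the unadjusted p was under 0.05 in 3 of 10 such fits for Adnp and 8 of 10 for Zc3h18, and that of Adnp was 0.0702 in the joint fit and 0.122 among deeper libraries. Among libraries of low mitochondrial share they stood at 193% and 287%, where no exact p can pass. Tom1l2 passed only with deposited FPKM, at 223% of control. The sum with Gm20716 brought the somatodendritic change of Adnp to 0.37, and a pseudocount of 5 that of 2510039O18Rik to 0.95. Axonal Cit rested on 8.53 implied fragments in control and 8.13 in knockdown libraries.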
